A study of Mus musculus with 9 samples.

Results

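The tetraspanin genes Cd9, Cd37, Cd53, Cd63, Cd81, Cd82, Cd151, Tspan13, Tspan31 and Tspan32 were followed across 9 RNA-seq libraries of sorted mouse B cells. These 10 members, out of 24346 gene symbols in the expression files, were taken by symbol and were chosen by a rule that already knew their levels in these libraries. Their own differences between groups are therefore given as a description. Where a fit over all genes called a member, that call repeats values that chose it, is no independent test and is not read further, in any comparison or with any library left out. The libraries came from spleens of wild-type C57BL6 mice, with 3 libraries (n = 3 mice) in each of 3 groups: follicular (FO) B cells of mice aged 8 weeks, FO B (Young), FO B cells of mice aged 50 weeks, FO B (Aged), and age-associated B cells (ABCs) of mice aged 50 weeks, ABCs (Aged). Among B cells, the FO B gate included B220hiCD43-CD23+CD21lo and the ABC gate B220hiCD43-CD23-CD21loCD11b+CD11c+. Any difference between ABCs and FO B cells spans the sort gate. ABCs of young mice were not analysed here, so ABCs (Aged) against FO B (Young) spans both age and gate, which cannot be told apart. P-values measure the spread between mice.

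Tetraspanins are small proteins that pass through the membrane several times and gather integrins, receptors and each other into patches of the cell surface and of internal vesicles. Cd37 and Cd53 are largely restricted to leukocytes, Cd81 associates with the complement receptor Cr2 on B cells, and Cd9 and Cd63 are widely used as markers of released vesicles. Within mouse B cells, Cd9 protein is known as a marker of marginal zone B cells, B1 cells and plasma cells. B cells of ABC type, which express the transcription factor T-bet (Tbx21) and the integrin Cd11c (Itgax), accumulate with age.

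Genes of the sort, and Tbx21, which was part of neither gate, separated the groups. Itgam, Itgax and Tbx21 together reached 278 to 292 FPKM (the authors' unit of fragments scaled by transcript length and by mapped reads) in ABCs, against 5.94 to 9.34 in FO B (Aged). Fcer2a, which encodes Cd23, and Cr2 together reached 1.21 to 15.3 FPKM in ABCs, against 844 to 886 in FO B (Aged). Cd21, the product of Cr2, was gated low in both the FO B and the ABC gate. The summed level of 5 B cell genes was 6495 to 8743 FPKM in ABCs and 8036 to 8434 FPKM in FO B (Aged). Depth is not given with FPKM values. The steps between the low values of 3076 genes with 1 annotated transcript placed the libraries at 8068000 to 9772000 reads, a spread of 1.21 times, if fragments of 200 bases are assumed. The search covered only a bounded range of depths around these values. Depths outside it could not be found, so a wider spread was not tested. The third ABC library stood apart from the other two in several genes named here, and it is pointed out beside many of them, not all. It also set the lowest ABC sums of the B cell genes and of Fcer2a with Cr2. Flot1, Flot2 and Igsf8 were highest among ABCs in it, and Itga4 and Tspan33 lowest. Without it the ratio of ABCs to FO B (Aged) went from 2.29 to 1.99 for Flot2 and from 2.52 to 2.23 for Igsf8.

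FPKM is scaled by transcript length, so levels can be ranked between members. Cd37 was the most abundant member in each group, at 1232 ± 53.7 FPKM (SD, n = 3) in FO B (Aged), higher than 99.2% of the genes that averaged 1 FPKM or more there. Cd53 followed at 463 ± 34.9 FPKM, then Cd81 at 280.1 ± 14.0, Tspan32 at 248 ± 0.756, Tspan13 at 155 ± 6.99, Cd82 at 86.6 ± 2.07 and Tspan31 at 52.5 ± 2.57. Cd9 at 9.01 ± 1.72, Cd151 at 3.63 ± 1.31 and Cd63 at 1.43 ± 0.697 FPKM were the 3 lowest. No neighbours in this order overlapped between libraries in FO B (Aged). In FO B (Young) the order was the same except that Tspan32 and Cd81 changed places, and these neighbours overlapped there.

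In ABCs the order was different for the members that were higher there. Cd81 stood in rank 2 in place of Cd53, Tspan31 stood above Cd82, and Cd63 stood above Cd151. The libraries of Tspan31 and Cd82 overlapped, as did those of Cd63 and Cd151, so these neighbours could not be separated in ABCs. Cd9 kept rank 8, but its mean was above that of 34.9% of the genes at 1 FPKM or more in FO B (Aged) and of 86.3% in ABCs. The 10 members together summed to 2720 to 3163 FPKM in ABCs, with 2485 to 2568 FPKM in FO B (Aged) and 2458 to 2524 FPKM in FO B (Young). The third ABC library set the highest of these sums.

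**Figure D1:**
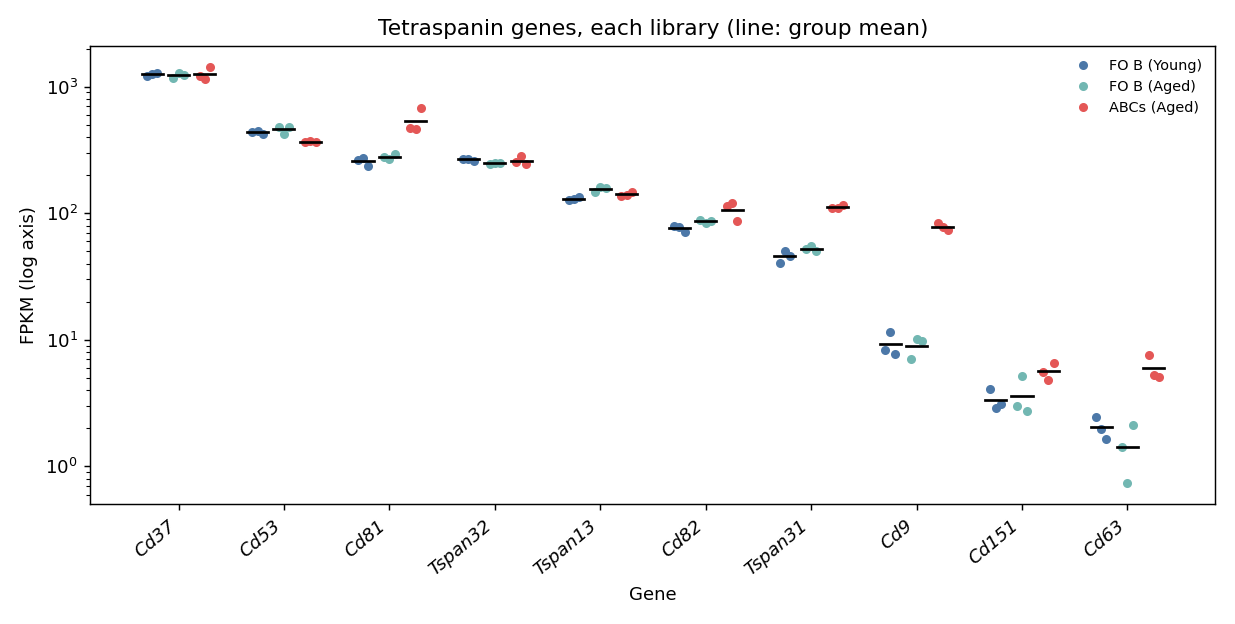
FPKM of each of the 10 tetraspanin genes (log axis) in each library, coloured by group, with a black line at the group mean and genes ordered by their mean in FO B (Aged). The 3 ABC libraries of Cd9 sit at 73.7 to 83.9 FPKM, above all 6 FO B libraries at 7.03 to 11.6, while those of Cd37 lie among them.

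Among the members tied to surface adhesion and vesicles, Cd9 differed most between the sorted populations. Cd9 (chr6:125460266-125494791, minus strand, GENCODE M21 on GRCm38) was at 8.39, 11.6 and 7.74 FPKM in FO B (Young), at 7.03, 10.1 and 9.87 FPKM in FO B (Aged) and at 83.9, 77.2 and 73.7 FPKM in ABCs. All ABC libraries were far above all FO B libraries, and the FO B groups overlapped. Its ABC mean was 8.69 times the FO B (Aged) mean, a log2 fold change of 3.0 ± 0.14 (SE of the limma fit across all genes, on the scale of log2 of FPKM plus 1).

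Cd63 (chr10:128900989-128912822, plus strand), a tetraspanin of late endosomes, lysosomes and secretory granules, was low in all groups. It was at 2.46, 1.99 and 1.65 FPKM in FO B (Young), at 1.43, 0.737 and 2.13 FPKM in FO B (Aged) and at 7.64, 5.31 and 5.11 FPKM in ABCs. All ABC libraries were above all FO B libraries, with a mean ratio of 4.20 to FO B (Aged) and a log2 fold change of 1.55 ± 0.25. The steps of its FPKM values corresponded to at least 5 to 13 reads in FO B (Aged) and 29 to 43 reads in ABCs, so counting error is large for this member.

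Cd151 (chr7:141467392-141471473, plus strand), which binds laminin-receptor integrins, was also low. It was at 4.10, 2.90 and 3.09 FPKM in FO B (Young), at 3.02, 5.13 and 2.72 FPKM in FO B (Aged) and at 5.54, 4.78 and 6.59 FPKM in ABCs. The second FO B (Aged) library lay inside the ABC range. The log2 fold change of 0.55 ± 0.21 was not called, and it was 0.77 and called without that library. With any other library left out it was not called.

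Cd81 (chr7:143052739-143067934, plus strand) was at 266, 276 and 238 FPKM in FO B (Young), at 279, 267 and 295 FPKM in FO B (Aged) and at 472, 459 and 683 FPKM in ABCs. All ABC libraries were above all FO B libraries, and the third ABC library was the highest. The mean ratio of ABCs to FO B (Aged) was 1.92, with a log2 fold change of 0.92 ± 0.15. Without the third ABC library the log2 fold change was 0.73.

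Tspan31 was at 40.2, 50.4 and 46.3 FPKM in FO B (Young), at 51.8, 55.3 and 50.3 FPKM in FO B (Aged) and at 110.9, 110.2 and 116 FPKM in ABCs. The 3 ABC libraries lay close together and above all FO B libraries, with a mean ratio of 2.14 to FO B (Aged) and a log2 fold change of 1.09 ± 0.07. Tspan31 (chr10:127067280-127070264, minus strand) runs toward the cell cycle kinase gene Cdk4 on the plus strand. The genes share 641 exonic bases, 29.2% of the exonic bases of Tspan31, and the cDNA kit does not mark strand, so reads there cannot be told apart. Cdk4 itself was at a mean of 124 FPKM in FO B (Aged) and 138 FPKM in ABCs. Cd9, Cd37, Cd81, Cd151 and Tspan32 also share exonic bases with a gene on the other strand, from 0.369% of those of Cd37 to 10.7% of those of Cd9.

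Cd53 (chr3:106759921-106790149, minus strand) was the member that was below all FO B libraries in ABCs. It was at 441, 447 and 425 FPKM in FO B (Young), at 482, 423 and 484 FPKM in FO B (Aged) and at 363, 371 and 366 FPKM in ABCs. All ABC libraries were below all FO B libraries, at 0.792 times the mean of FO B (Aged), and the log2 fold change was -0.33 ± 0.07. It was no longer called without the first FO B (Aged) library, at a log2 fold change of -0.30.

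The other 4 members had smaller differences. Cd37 was at 1178, 1286 and 1232 FPKM in FO B (Aged) and at 1225, 1147 and 1436 FPKM in ABCs, highest in the third library, so the groups overlapped, and its log2 fold change was 0.04 ± 0.10. Tspan32, a tetraspanin of blood cells also known as Tssc6, was at 247, 249 and 248 FPKM in FO B (Aged) and at 253, 286 and 243 FPKM in ABCs. Tspan13 was at 147, 160.0 and 157 FPKM in FO B (Aged) and at 137, 138 and 147 FPKM in ABCs, with a log2 fold change of -0.13 ± 0.06 that was not called, and it was -0.19 and called lower with quantile normalization. Cd82, also known as Kai1, was at 87.9, 84.2 and 87.6 FPKM in FO B (Aged) and at 113, 121 and 86.4 FPKM in ABCs. The third ABC library of Cd82 lay inside the FO B (Aged) range while the other ABC libraries were above it. Its log2 fold change of 0.29 ± 0.12 was not called, and it was 0.43 and called without that library. With any other library left out Cd82 was not called.

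**Figure D2:**
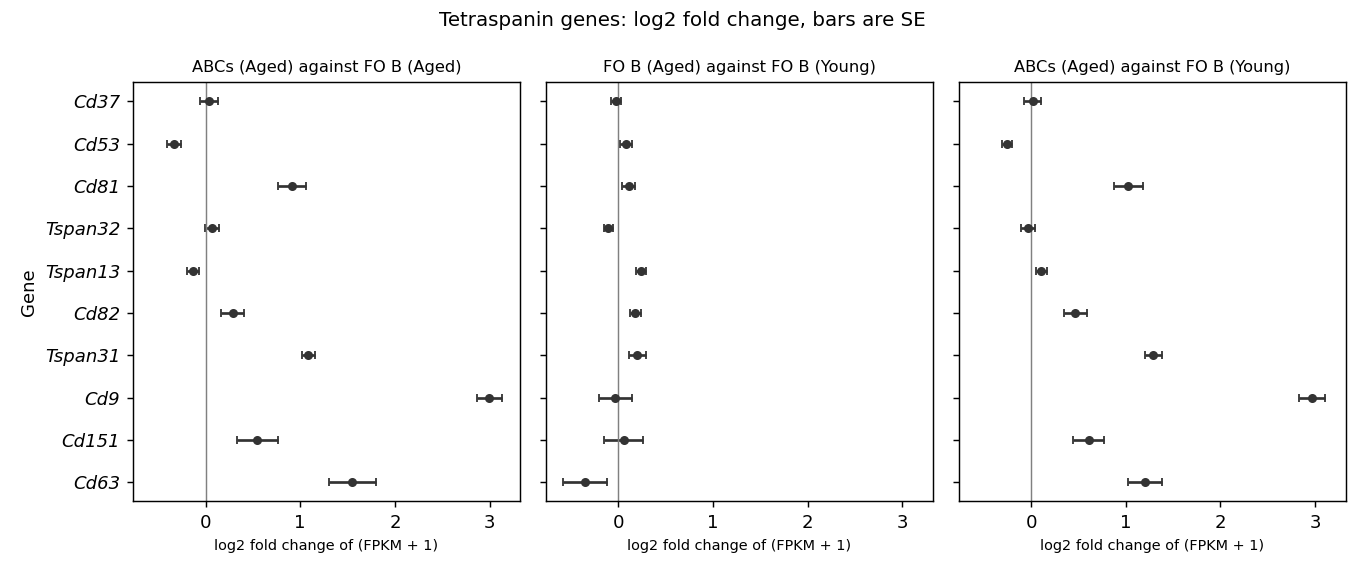
Log2 fold change of FPKM plus 1 (x axis) of each member for ABCs (Aged) against FO B (Aged), FO B (Aged) against FO B (Young) and ABCs (Aged) against FO B (Young), with bars of 1 SE of the limma fit. In both panels with ABCs, Cd9 lies at 3.0 and 2.97 and Cd53 below 0, and in the middle panel all members lie between -0.35 and 0.24.

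Across all 10412 genes tested between ABCs and FO B (Aged), limma called 19.4% higher and 16.5% lower in ABCs at a Benjamini-Hochberg false discovery rate (FDR) under 0.05. All 10 members passed the minimum mean of 1 FPKM, and 5 were called: Cd9, Cd63, Cd81 and Tspan31 higher and Cd53 lower. Those 5 were also the members whose libraries did not overlap between the groups, which held for 52.6% of all genes tested. The median log2 fold change was 0.42 over the members and -0.01 over all genes tested. An FDR under 0.01 with an absolute log2 fold change above 2.3 was met by 1 member, Cd9, and by 1.92% of all genes tested.

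Of the 4 members higher in ABCs, Cd9 lies on chromosome 6, Cd81 on chromosome 7, and Cd63 and Tspan31 on chromosome 10. Cd81 is 33094 bases from Tspan32, which had a log2 fold change of 0.07 ± 0.07 in ABCs against FO B (Aged). To show what precedes them, the sequence upstream of the RefSeq start (GRCm38.p6) of the 4 members is printed on the strand of the gene, from 250 bases before that start up to the first annotated exon base of the gene. They are Cd9 at chr6:125494792-125495010 (minus strand), Cd63 at chr10:128909095-128909344 (plus strand), Cd81 at chr7:143052500-143052738 (plus strand) and Tspan31 at chr10:127070265-127070511 (minus strand). The Cd9 window also holds exon sequence of the non-coding Gm26728 and the Tspan31 window that of the non-coding A730063M14Rik, both on the opposite strand. The Cd63 window lies inside the GENCODE span of the gene, which has longer transcripts that start further upstream. Capitals mark the matches described after the sequences.
Cd9: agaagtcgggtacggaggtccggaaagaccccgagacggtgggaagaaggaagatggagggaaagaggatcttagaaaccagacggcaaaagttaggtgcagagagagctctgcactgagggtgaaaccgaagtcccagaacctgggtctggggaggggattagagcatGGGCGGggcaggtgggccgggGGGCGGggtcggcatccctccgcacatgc
Cd63: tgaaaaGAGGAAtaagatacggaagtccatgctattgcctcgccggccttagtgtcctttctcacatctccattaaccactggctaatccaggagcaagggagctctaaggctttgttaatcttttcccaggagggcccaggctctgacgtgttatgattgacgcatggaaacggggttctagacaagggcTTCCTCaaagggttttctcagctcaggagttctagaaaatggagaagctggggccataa
Cd81: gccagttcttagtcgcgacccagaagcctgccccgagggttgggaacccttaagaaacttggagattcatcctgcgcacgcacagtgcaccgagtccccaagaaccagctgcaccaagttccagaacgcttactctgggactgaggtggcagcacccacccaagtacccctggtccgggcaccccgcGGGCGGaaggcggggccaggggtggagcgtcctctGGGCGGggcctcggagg
Tspan31: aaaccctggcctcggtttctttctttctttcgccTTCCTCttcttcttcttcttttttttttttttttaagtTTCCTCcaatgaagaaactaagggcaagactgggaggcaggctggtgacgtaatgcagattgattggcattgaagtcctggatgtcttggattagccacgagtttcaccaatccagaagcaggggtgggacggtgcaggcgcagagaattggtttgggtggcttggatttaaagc

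Letters of 5 motifs were searched on both strands of these windows. The GC box GGGCGG, the core of sites bound by Sp factors, was found 2 times each upstream of Cd9 and Cd81 and not in the windows of Cd63 and Tspan31, and 28.3 to 32.7% of all 32851 promoter windows of the same lengths hold it. The letters GAGGAA, found at many sites of the B cell and myeloid factor PU.1, or their complement TTCCTC were found 2 times each upstream of Cd63 and Tspan31 and not in the windows of Cd9 and Cd81, against 20.3 to 23.3% of all windows. The T-box element GGTGTG, of the kind bound by T-bet, TATAAA and the NF-kappa-B consensus were found in none of the 4 windows, and 14.6 to 16.3%, 9.92 to 12.4% and 6.32 to 7.25% of all windows hold them. No capitals overlap between motifs. Such matches are letters in a window and were not tested for binding.

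Age was compared within FO B cells. Between FO B (Aged) and FO B (Young), limma called 0.346% of 10122 genes higher and 0.119% lower with age at FDR under 0.05, and it called 0 of the 10 members. At an unadjusted p under 0.05 the same fit picked 4 members, Cd82, Tspan13, Tspan31 and Tspan32, and 1298 genes in all. The libraries of 3 members did not overlap between the ages, against 18.6% of all genes tested.

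Tspan13 was at 128, 130 and 134 FPKM in FO B (Young) and at 147, 160.0 and 157 FPKM in FO B (Aged). Every aged library exceeded every young library, with a log2 fold change of 0.24 ± 0.05. Cd82 was at 79.6, 77.7 and 71.6 FPKM in FO B (Young), below all 3 FO B (Aged) libraries, with a log2 fold change of 0.18 ± 0.06. Tspan32 was at 270.3, 270.0 and 259.8 FPKM in FO B (Young), above all 3 FO B (Aged) libraries, with a log2 fold change of -0.11 ± 0.05. The other 7 members overlapped between the ages. Cd9, the member with the largest difference between ABCs and FO B (Aged), had a log2 fold change of -0.03 ± 0.17 with age in FO B cells.

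Against FO B (Young), limma called 21.6% of 10438 genes higher and 19.1% lower in ABCs at FDR under 0.05. Of the members, Cd9, Cd63, Cd81, Cd82, Cd151 and Tspan31 were called higher and Cd53 lower. These members were chosen with this comparison in view too, and it uses the same ABC libraries as the first. Age and sort gate both differ in it and cannot be told apart. Cd9 had a log2 fold change of 2.97 ± 0.14, Tspan31 of 1.29 ± 0.09, Cd63 of 1.20 ± 0.18 and Cd81 of 1.03 ± 0.15. Cd151 at 0.61 ± 0.16, Cd82 at 0.47 ± 0.13 and Cd53 at -0.25 ± 0.05 had smaller differences. Cd82 lost its call on leaving out any library other than the third of ABCs, and Cd151 on leaving out FO B (Young) library 2 or 3 or ABC library 1.

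The rest of the family was read from a list of 31 tetraspanin symbols, all in the files, of which 21 are not members. In ABCs against FO B (Aged), 7 of these 21 passed the minimum mean, and 2 were called higher, 1 lower and 4 not by limma at FDR under 0.05. These 3 of 7 are 42.9%, beside 35.9% of all genes tested, and Upk1a among them passed the minimum mean only through ABCs. Tspan14, one of the tetraspanins that escort the protease Adam10 out of the endoplasmic reticulum, rose from 43.8, 41.7 and 42.0 FPKM to 71.1, 69.4 and 69.1 FPKM (log2 fold change 0.71 ± 0.06, limma FDR 0.000234). Tspan2 fell from 4.91, 5.81 and 4.87 FPKM to 1.74, 2.04 and 1.66 FPKM (log2 fold change -1.14 ± 0.13, limma FDR 0.00086). The ABC libraries of each of these genes lay outside the FO B range.

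Upk1a, a uroplakin known from the urothelium of the bladder, was at 0.224, 0.185 and 0.308 FPKM in FO B (Aged) and at 5.45, 5.03 and 45.6 FPKM in ABCs. It had a log2 fold change of 3.30 ± 0.73 (limma FDR 0.0118), and the third ABC library was far above the other two. It passed the minimum mean only through the ABC libraries, so it had to differ to be tested. In reads, its steps corresponded to 2 or 3 in each FO B (Aged) library and to 49, 50 and 411 in the ABC libraries. Without the third ABC library the log2 fold change was 2.33 (limma FDR 7.24e-05), and the ratio of the means went from 78.2 to 21.9.

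Of the uncalled genes, Tspan3 was at 14.3, 16.3 and 10.3 FPKM in FO B (Aged) and at 26.7, 20.8 and 16.2 FPKM in ABCs (limma FDR 0.0634, and 0.0185 at a log2 fold change of 0.77 without the third ABC library). With any other library left out Tspan3 was not called. Tspan17, which like Tspan14 is an Adam10 escort, was at 6.49, 7.52 and 6.11 FPKM in FO B (Aged) and at 8.61, 9.11 and 17.0 FPKM in ABCs (limma FDR 0.0718), the highest value being the third ABC library. Tspan5, a further Adam10 escort, was at 6.84, 6.55 and 5.95 FPKM in FO B (Aged) and at 4.90, 5.61 and 0.334 FPKM in ABCs (limma FDR 0.206). The low value of Tspan5 is again the third ABC library. Rom1, a photoreceptor tetraspanin, was at 5.14 ± 1.5 FPKM in FO B (Aged) and 4.76 ± 1.39 FPKM in ABCs (limma FDR 0.776).

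Tspan6 passed the minimum mean in the comparison of ages, where it was not called, and was at 1.03, 1.04 and 1.67 FPKM in FO B (Aged) and at 0.157, 0.924 and 0 FPKM in ABCs. Tspan33, known from activated human B cells, stayed under the minimum mean, with 0.0565 to 0.893 FPKM in FO B (Aged) and 0.811 to 1.98 FPKM in ABCs. Tspan4 was at 0.0924 to 0.514 FPKM in FO B (Aged) and at 0.907 to 1.22 FPKM in ABCs.

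**Figure D3:**
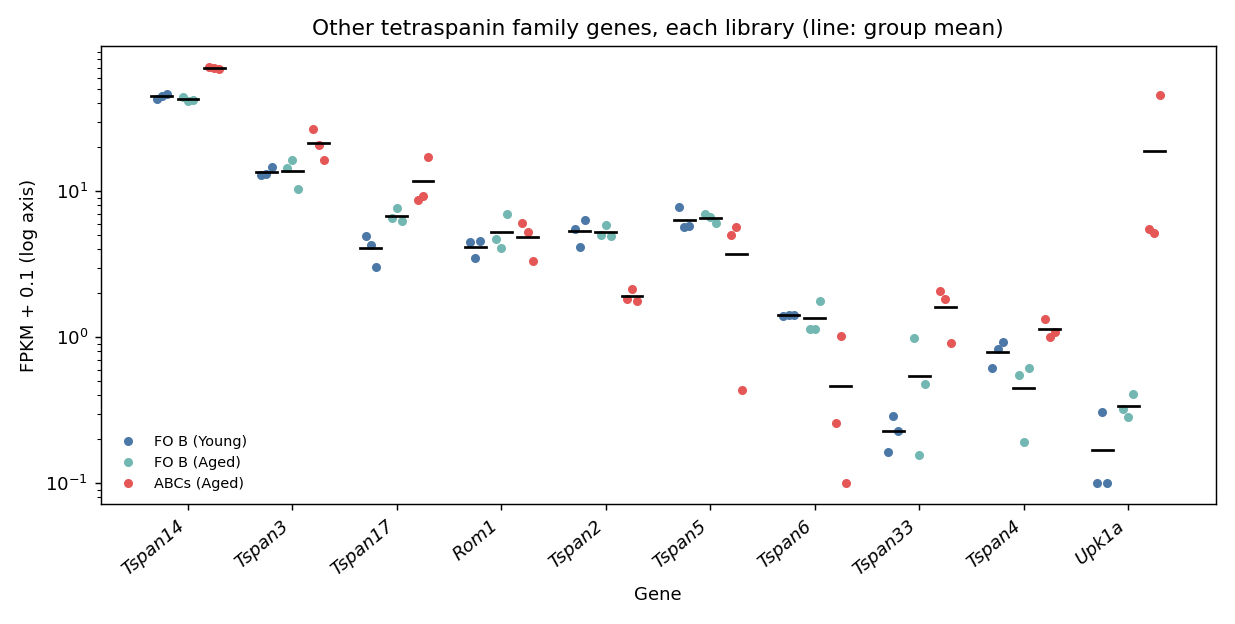
FPKM plus 0.1 (log axis) in each library of 10 family genes that are not among the members, coloured by group, with a black line at the group mean. Tspan14 lies at 69.1 to 71.1 FPKM in ABCs against 41.7 to 43.8 in FO B (Aged), and for Tspan5, Tspan17 and Upk1a the third ABC library lies apart from the other two.

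Partners of tetraspanins were read from a list of 12 genes, of which 9 passed the minimum mean in ABCs against FO B (Aged). Of these, 2 rose, 1 fell and 6 were not called by limma, and the median log2 fold change was -0.13. These 3 of 9 are 33.3%, no more than the 35.9% called over all genes tested. Itgb1, the beta chain of several integrins that tetraspanins bind, rose from 12.98, 12.9 and 13.1 FPKM to 347, 275 and 467 FPKM, highest in the third library (log2 fold change 4.67 ± 0.17, limma FDR 9.66e-06). Igsf8, an immunoglobulin protein that binds Cd9 and Cd81 directly, rose from 4.93, 5.35 and 4.67 FPKM to 12.4, 9.77 and 15.5 FPKM (log2 fold change 1.16 ± 0.16, limma FDR 0.00183). The integrin alpha chains Itga4 and Itga6 were not called. Itga4 was at 18.01 ± 1.94 FPKM in FO B (Aged) and 13.2 ± 2.51 FPKM in ABCs (limma FDR 0.0591), and Itga6 at 2.78 ± 0.684 and 2.44 ± 0.558 FPKM (limma FDR 0.615). Adam10, the protease that Tspan14 escorts, was at 33.2 ± 0.631 FPKM in FO B (Aged) and 37.8 ± 3.71 FPKM in ABCs (limma FDR 0.150).

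Cr2, the complement receptor found with Cd81, fell from 166, 127 and 159 FPKM to 4.93, 8.39 and 0.745 FPKM, lowest in the third library (log2 fold change -5.04 ± 0.55, limma FDR 0.000636). Its product, Cd21, was used in the sort, where it was gated low in both the FO B and the ABC gate. Ifitm1, of the interferon-induced membrane proteins that tetraspanins bind, stayed under the minimum mean, at 0.308 ± 0.268 FPKM in FO B (Aged) and 0.988 ± 0.403 FPKM in ABCs. The related Ifitm3 was at 1.98, 4.19 and 14.8 FPKM in FO B (Aged) and at 1.96, 2.03 and 0.835 FPKM in ABCs (limma FDR 0.114), and Ifitm2 was at 1.93 ± 0.751 and 1.23 ± 0.312 FPKM (limma FDR 0.244).

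Genes of vesicle formation were read from a list of 16, of which 15 passed the minimum mean. In ABCs against FO B (Aged), 5 rose, 1 fell and 9 were not called by limma, with a median log2 fold change of 0.04. These 6 of 15, or 40%, are near the 35.9% called over all genes tested. The flotillins, scaffold proteins of lipid rafts, rose: Flot1 from 16.8 ± 0.494 to 29.1 ± 4.44 FPKM (log2 fold change 0.75 ± 0.11, limma FDR 0.00239) and Flot2 from 11.04 ± 0.376 to 25.2 ± 5.79 FPKM (log2 fold change 1.10 ± 0.15, limma FDR 0.00168). The lysosomal membrane proteins Lamp1 and Lamp2 rose by log2 fold changes of 0.52 ± 0.06 and 0.49 ± 0.08. Sdcbp, which encodes syntenin, an adaptor that binds Cd63, fell from 161 ± 6.37 to 132 ± 3.22 FPKM (log2 fold change -0.29 ± 0.06, limma FDR 0.00971). Stam2 of the sorting machinery rose by a log2 fold change of 0.36 ± 0.11 (limma FDR 0.0431), a call that was lost on leaving out any library other than the first of ABCs. Among the genes of the sorting and budding complexes, Tsg101, Hgs, Stam, Vps4a, Vps4b, Chmp4b and Pdcd6ip had log2 fold changes between -0.15 and 0.11 and were not called.

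**Figure D4:**
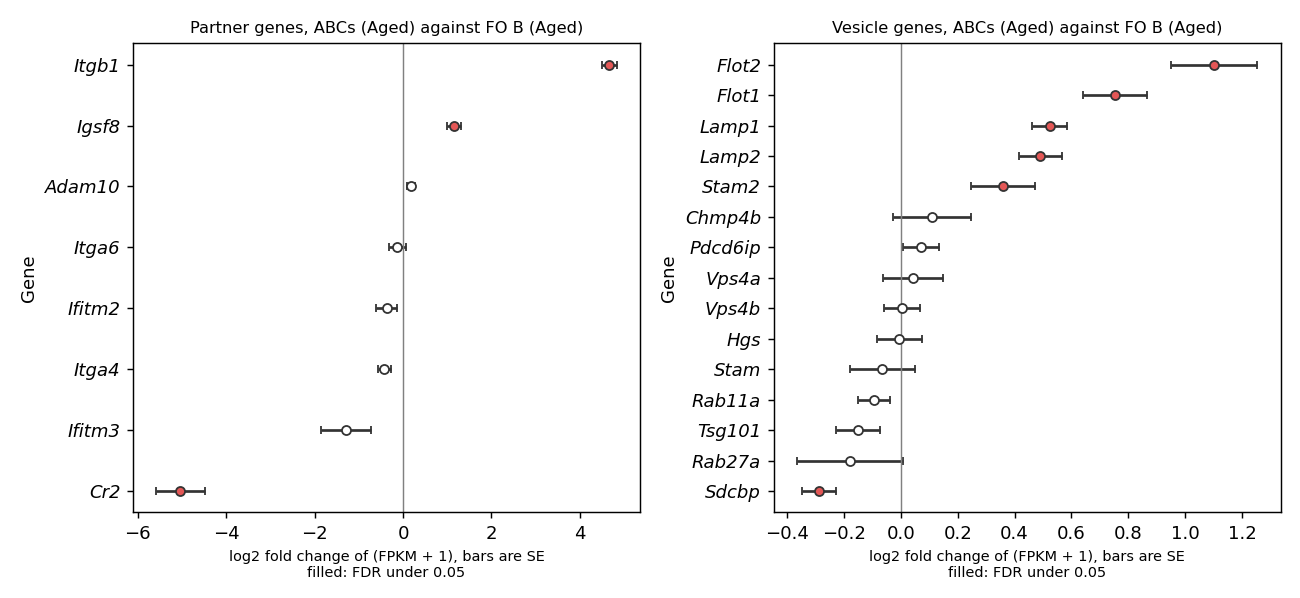
Log2 fold change of FPKM plus 1 for ABCs (Aged) against FO B (Aged) (x axis), with bars of 1 SE of the limma fit, for 8 of the 9 partner genes (left) and the 15 vesicle genes (right) that passed the minimum mean. Filled points have an FDR under 0.05, and Itgb1 at 4.67 and Cr2 at -5.04 lie at the ends of the partner list.

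In the partner, vesicle and family lists, limma called 0 genes between FO B (Aged) and FO B (Young) at FDR under 0.05. At an unadjusted p under 0.05 it picked 2 of 9 partner genes, 2 of 15 vesicle genes and 5 of 17 family genes, members included, beside 12.8% of all genes tested. Those of the family that are not members came down to Tspan17, which was at 4.85, 4.15 and 2.95 FPKM in FO B (Young), below all FO B (Aged) libraries (limma FDR 0.154).

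Genes whose levels ran most like those of the members were named for the 3 members with the largest differences. Likeness was the root mean square difference of centred log2(FPKM + 1) over the 9 libraries, among 10374 genes that averaged 1 FPKM or more. The added 1 weighs more in low genes, so likeness on this scale is not likeness of ratios. Nearest to Cd9 were Dapk2 at 0.198, Phactr2 at 0.218 and Car13 at 0.243 on this scale. Phactr2 had a mean of 0.207 FPKM in FO B (Aged) and 8.48 FPKM in ABCs. Nearest to Cd63 were Ppfibp2 at 0.215, Ms4a7 at 0.228 and Gpt2 at 0.239, and nearest to Tspan31 were Ctsh at 0.0956, Npc2 at 0.102 and Rfc2 at 0.105. Genes picked for likeness to members that were higher in ABCs are bound to be higher there too. Ctsh, a lysosomal protease, had an ABC mean of 1066 FPKM beside an FO B (Aged) mean of 533 FPKM, and Dapk2 a mean of 7.69 FPKM in ABCs, while it was listed at 0 in the FO B libraries.

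Cd9 and Cd63 are abundant in platelets and macrophages, so markers of those cells were read beside them. A list of 6 platelet genes summed to 0.619 to 2.54 FPKM in ABCs and 0.125 to 0.837 FPKM in FO B (Aged), and its defining gene Pf4 reached at most 0.977 FPKM. A list of 8 macrophage and monocyte genes summed to 16.7 to 23.1 FPKM in ABCs, while FO B (Aged) libraries had 7.82 to 14.8 FPKM and FO B (Young) libraries 11.1 to 25.2 FPKM. Of these, Cd68 was at 6.38 to 13.1 FPKM in ABCs, lowest in the third library, and 3.15 to 4.70 in FO B (Aged), while Csf1r reached at most 0.831 FPKM. Of 3 B1 cell genes, Zbtb32 was at 105 to 123 FPKM and Bhlhe41 at 26.1 to 32.1 FPKM in ABCs, against at most 2.88 and 1.43 in FO B (Aged). Cd5 was low but also higher in ABCs, at 0.656 to 2.86 FPKM against 0.265 to 0.435 in FO B (Aged). A list of 5 plasma cell genes summed to 179.9 to 210.4 FPKM in ABCs and 112 to 129.98 in FO B (Aged). Most of it was Xbp1, at 126 to 142 FPKM in ABCs and 102 to 122 in FO B (Aged). In the same order, Jchain was at 12.5 to 61.6 and 2.73 to 8.44 FPKM, lowest in the third ABC library. Sdc1 was at 8.37 to 29.5 and 2.69 to 3.76 FPKM, highest in that library, and Prdm1 at 2.93 to 5.70 and 0.180 to 0.713. Tnfrsf17 overlapped, at 0.611 FPKM or less. The part of these cell types in the members' levels was not tested, and in sorted bulk cells more cells of a type and more RNA per cell cannot be told apart.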

How the data were processed

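RNA-seq of 9 libraries, 3 for each of FO B (Young), FO B (Aged) and ABCs (Aged), was used, with groups taken from the sample titles. The deposited values are FPKM, given by the authors for each gene symbol in each library. The SMART-Seq HT kit was used for cDNA and the Nextera XT kit for libraries, neither of which marks strand, and reads were single-end and 101 bases long. The submitters' processing notes name TopHat2 2.1.1, Bowtie2 2.2.8, SAMtools 0.1.18, Cuffdiff 2.2.1 and mm10. The annotation and the scaling between libraries are not given in the sources used here.

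The scale log2(FPKM + 1) was modelled in R 4.3.3 by limma 3.58.1 (functions lmFit and eBayes, trend on), using the 6 libraries of each comparison, without a block, and genes that averaged 1 FPKM or more. P-values were adjusted by the method of Benjamini and Hochberg over all genes tested, with calls at an FDR under 0.05. A fold change on this scale understates that of low genes. With 3 libraries a group, an exact permutation test of 1 gene cannot go below p = 0.1. On values simulated for ABCs (Aged) against FO B (Aged), limma called 96 of 100 genes changed by 2 on the log2 scale, 73 of 100 changed by 1 and 11 unchanged genes among 10123 tested. The noise was drawn for each gene on its own. Changed genes were drawn only from those with a mean log2(FPKM + 1) above 2 in FO B (Aged). These rates therefore do not cover lower genes such as Cd63 and Upk1a. Reads behind low FPKM values were estimated from their smallest steps. Between 76.8 and 82.2% of the low values per library came within 0.1 of a whole read, the effective length was assumed, and the reads cover counting error only. Positions came from GENCODE M21 and upstream sequences from RefSeq, both on GRCm38, and all 10 members and all 31 family symbols had an entry. Python 3.11.15, numpy 2.4.6, pandas 2.3.3 and matplotlib 3.10.9 were used elsewhere.

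The members and all gene lists were chosen with earlier results of these data known. Named were all members, the family genes past the minimum mean, Tspan4 and Tspan33 after their values were seen, the called or most changed genes of the partner and vesicle lists, Ifitm1, and the 3 genes nearest in pattern to each of 3 members. The 13 marker lists were read as sums. A gene of the partner list is counted but not reported here. Alternatives were other pseudocounts, filters, scalings and fits, a replicate block, each library left out, and stricter thresholds.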

Additional observations from a re-analysis of the deposited data

How the results depend on the processing

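In ABCs (Aged) against FO B (Aged), Cd9, Cd63, Cd81 and Tspan31 were higher and called at FDR under 0.05 in each alternative fit they entered. These fits reuse the libraries whose values chose the members, so the repeated calls are no independent support. A minimum mean of 5 FPKM left out Cd63 and Cd151, so they have no value there. The stricter thresholds were an FDR under 0.01 and an absolute log2 fold change above 2.3. In that comparison 1 member, 1 family gene, 2 partner and 0 vesicle genes met them, beside 200 of all 10412 genes tested. Against FO B (Young), 1 member, 2 family, 3 partner and 0 vesicle genes met them, beside 230 of 10438. The family counts include the members, and without the members they were 0 and 1. The partner list had 5 genes called in place of 3 with quantile normalization and with all 9 libraries in 1 fit. Without the third FO B (Aged) library, 1 partner gene was called between the ages, with a range of 0 to 1 over the libraries left out. Over all genes, 2020 were called higher and 1719 lower in ABCs against FO B (Aged), but 1743 and 2145 with quantile normalization and 1801 and 1925 when scaled to TPM. Against FO B (Young) these were 2252 and 1996, then 1920 and 2439, then 2020 and 2317. With quantile normalization 6 members were called in ABCs against FO B (Aged), Tspan13 at -0.19 (limma FDR 0.0422) added. The direction turned for differences near 0 that were not called. Tspan32 in ABCs against FO B (Aged) was -0.027 with quantile normalization, and Cd37 in ABCs against FO B (Young) was -0.029 when scaled to TPM. Over the libraries left out, log2 fold changes ran from -0.055 to 0.11 for Cd37 in ABCs against FO B (Aged), from -0.075 to 0.087 for Cd37 and from -0.10 to 0.011 for Tspan32 against FO B (Young), and with age from -0.14 to 0.13 for Cd9, from -0.051 to 0.012 for Cd37 and from -0.16 to 0.20 for Cd151. The causes were not tested.

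Replicate numbers are shared between groups, and the deviations of same-numbered libraries correlated between -0.096 and 0.14. With 3 libraries a group, these values cannot tell whether same-numbered libraries came from the same mouse. With the replicate block, 5 members were called in ABCs against FO B (Aged), 0 with age and 7 against FO B (Young), as without it. Family genes called, members included, were 9, 0 and 11 in place of 8, 0 and 12. Over all genes tested, the block gave 3448, 37 and 3508 calls in place of 3739, 47 and 4248. For partner genes the block gave 3, 0 and 5 calls, as without it, and for vesicle genes 5, 0 and 6 in place of 6, 0 and 6. Not every library correlated best with its own number.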

Other observations

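Genes of other cell types were at levels that belong to no comparison of the tetraspanins. A list of 5 T cell genes summed to 4.97 to 37.6 FPKM in ABCs and 0.152 to 0.592 FPKM in FO B (Aged), almost all of it Cd3g at 4.93 to 37.0 FPKM, while Cd3e reached at most 0.0996 FPKM. A list of 4 NK cell genes summed to 24.5 to 38.0 FPKM in ABCs and 0.6003 to 1.01 FPKM in FO B (Aged), almost all of it the perforin gene Prf1 at 24.1 to 38.0 FPKM, while Ncr1 reached at most 0.0882 FPKM. Marginal zone genes, Cr2 included, summed to 118 to 171 FPKM in ABCs and 213 to 244 in FO B (Aged). Cr2, whose product was gated low in both gates, fell in that sum, while S1pr3 was at 40.3 to 125 FPKM in ABCs, highest in the third library, against 3.64 to 4.23 in FO B (Aged). Cd1d1 was lower in ABCs, at 17.7 to 32.6 FPKM against 38.7 to 52.5 in FO B (Aged). Dtx1 overlapped between these groups, at 27.8 to 37.1 FPKM against 29.7 to 34.1. Dendritic cell genes summed to 250.2 to 257 FPKM in ABCs and 249 to 308 in FO B (Aged), almost all of it Ccr7 at 244 to 250 and 246 to 304. Of the rest, Zbtb46 was at 2.90 to 3.34 against 0.437 to 1.46 FPKM and Siglech at 0.664 to 1.56 against 0 to 0.360. Xcr1 was also higher in ABCs, at 0.370 FPKM or less, and Flt3 and Clec9a overlapped. Neutrophil genes summed to 0 to 0.359 FPKM in ABCs and 0.987 to 21.3 in FO B (Aged), and erythroid genes to 0.256 to 0.497 and 0.0586 to 0.619 FPKM. These levels were not tested.

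The design limits what can be read: 3 libraries a group, FPKM without counts, sorted bulk cells, and ABCs at 1 age.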
